A study of Mus musculus with 8 samples.

Results

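The 8 RNA libraries of this mouse bone marrow series were made from cells enriched by 2 different magnetic routes before the sort. The 4 libraries of PD-1+ progenitors and CCR6+ progenitors came from marrow cells captured on a column through integrin α4β7, and the 4 libraries of common lymphoid progenitors (CLP) and common helper-like innate lymphoid progenitors (ChILP) came from marrow from which lineage-marked cells had been depleted. The routes were assigned from the sample titles and the sorting protocol in the labels, 4 of 8 libraries to each. What follows describes which marrow cell transcripts each route's libraries held.

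All cells came from bone marrow of C57BL/6 mice, with no allele or treatment named, and no age is given. All 4 populations were sorted as live Lineage- CD127+ c-Kit+ cells. The CLP gate added Flt-3+, Sca1+ and integrin α4β7-, and the ChILP gate added integrin α4β7+ with Flt-3- and T1/ST2-. The PD-1+ cells (called non-LTi ILC progenitors, where ILC is innate lymphoid cell and LTi is lymphoid tissue inducer) passed the ChILP gate and were also PD-1+ and CCR6-. The CCR6+ cells (called LTi progenitors) passed it and were PD-1- and CCR6+. Before the column, the captured marrow was blocked for Fc receptors and stained with a PE-labelled antibody to integrin α4β7, which anti-PE microbeads then bound. The depleted marrow went through a lineage cell depletion kit. Each population has 2 libraries, numbered 1 and 2, made by Smart-seq2 from poly(A) RNA. The labels do not say whether these came from separate mice or sorts, so the p-values below measure the spread between these libraries, which may be technical. No population was taken by both routes, so enrichment route and sorted population cannot be told apart. The nearest comparison holds the base gate alike: the PD-1+ and CCR6+ cells are divisions of the ChILP gate.

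Marrow holds every stage of blood cell formation side by side. Red cell precursors pass from factors such as GATA1 and KLF1 to hemoglobin, while neutrophil precursors first make primary granule enzymes (myeloperoxidase, elastase) and later secondary granule proteins and the calprotectin pair S100A8 and S100A9. Lineage depletion takes out cells that carry antigens of mature cells, which early precursors mostly lack. Positive capture holds back cells that bind the antibody or the beads, and phagocytes carry Fc receptors that bind antibodies. 3 transcripts mark these lineages here: Hba-a1 (hemoglobin α chain, red cells), Lyz2 (lysozyme, monocytes, macrophages and neutrophils) and Mpo (myeloperoxidase, early granulocyte and monocyte precursors).

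The 250 bases before the start of 4 genes that separate the routes are printed here because these genes carry the red cell and myeloid results. Hba-a1 and Hbb-bs, the β chain gene that the deposited files call Beta-s, and Lyz2 were higher in the captured libraries, and Mpo was higher in the depleted ones. The sequences and positions are RefSeq's for GRCm38.p6 (Hba-a1 chr11:32283422-32283671 on the plus strand, Hbb-bs chr7:103827929-103828178 minus, Lyz2 chr10:117282273-117282522 minus, Mpo chr11:87793534-87793783 plus), written on the gene's own strand, and the deposited values carry no coordinates. Capitals mark, on either strand, the core bound by GATA1 (GATAA), the box bound by KLF1 and related factors (CACCC), the box that positions many start sites (TATAA), the box bound by NF-Y (CCAAT) and a core of PU.1 sites (GAGGAA).
Hba-a1: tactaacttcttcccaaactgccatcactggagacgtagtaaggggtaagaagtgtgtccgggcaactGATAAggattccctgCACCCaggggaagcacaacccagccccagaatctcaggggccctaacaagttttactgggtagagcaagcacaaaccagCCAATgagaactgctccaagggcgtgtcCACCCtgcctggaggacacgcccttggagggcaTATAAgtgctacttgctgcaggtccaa
Hbb-bs: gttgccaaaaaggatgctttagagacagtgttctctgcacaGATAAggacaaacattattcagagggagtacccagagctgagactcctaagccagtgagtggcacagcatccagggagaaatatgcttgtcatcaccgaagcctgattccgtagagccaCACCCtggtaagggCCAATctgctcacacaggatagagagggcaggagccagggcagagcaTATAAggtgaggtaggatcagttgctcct
Lyz2: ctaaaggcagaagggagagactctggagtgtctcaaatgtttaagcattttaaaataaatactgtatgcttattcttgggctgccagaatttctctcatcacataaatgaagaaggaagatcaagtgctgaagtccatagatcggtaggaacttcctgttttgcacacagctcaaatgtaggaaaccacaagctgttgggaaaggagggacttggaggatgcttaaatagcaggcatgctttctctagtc
Mpo: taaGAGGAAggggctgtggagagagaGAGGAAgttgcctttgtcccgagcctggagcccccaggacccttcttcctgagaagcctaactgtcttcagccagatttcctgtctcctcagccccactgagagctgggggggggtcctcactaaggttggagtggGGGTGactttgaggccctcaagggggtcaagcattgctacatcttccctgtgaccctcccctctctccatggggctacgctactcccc
Both globin windows held 1 GATAA, 1 TATAA and 1 CCAAT, with 2 CACCC in Hba-a1 and 1 in Hbb-bs. In Mpo there were 2 GAGGAA and 1 CACCC, the latter on the other strand (GGGTG), and in Lyz2 none of the 5 motifs. No base lay in 2 motifs. Of 32851 RefSeq promoter windows of this length, 22.6% held GATAA, 52.0% CACCC, 22.8% TATAA, 33.9% CCAAT and 23.3% GAGGAA, so a match alone does not set these genes apart.

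Depth ran from 7685188 to 13997897 reads assigned to genes in the depleted libraries and from 7875507 to 12153158 in the captured ones. The reads were spread less evenly in the captured libraries. The 10 most abundant genes took 11.4 ± 1.55% of the reads there (SD, n = 4) and 5.07 ± 0.712% in the depleted libraries, with no overlap (2-sided exact permutation p = 0.0286, the smallest that 4 against 4 allows; adjusted over 4 library measures, 0.0572). Mpo or Prg2 was the most abundant gene in each depleted library, and Beta-s or Lyz2 in each captured one.

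Across 13619 genes tested with edgeR's quasi-likelihood test on the counts, 1556 were higher in the captured libraries (11.4% of those tested) and 1434 were higher in the depleted ones (10.5%) at a Benjamini-Hochberg adjusted p under 0.05. Against ChILP alone, the gate-matched comparison, 825 were higher in the captured libraries (6.06%) and 843 in ChILP (6.19%). These shares of all genes are the ones to set beside the counts of list genes below. Both comparisons share the captured libraries and ChILP, so they are given side by side and are not independent. Fold changes below are edgeR's log2 fold changes of scaled counts ± SE with equal weight for each population, and levels are the authors' RPKM (reads scaled to transcript length and library size). The median log2 fold change of all genes tested was -0.08, and -0.10 against ChILP. The split of calls depends on the scaling: with library totals alone, 1118 were higher in the captured libraries and 2657 lower (29.6% of calls higher, against 52.0%), and the median of all genes was -0.36. Larger differences lay more often on the captured side: 544 called genes were more than 4-fold higher there, and 163 more than 4-fold lower. By level alone, all 4 captured libraries lay above all 4 depleted ones in 9.05% of genes tested and below them in 22.5%. As these are bulk libraries, fewer cells of a type and less of its RNA per cell cannot be told apart in any of them.

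Globin transcripts took more of the captured libraries' reads than any other of the 27 gene lists. Hba-a1 (NM_008218) stood at 3112 and 548 RPKM in the CLP libraries, 4547 and 566 in ChILP, 21938 and 25445 in PD-1+ cells and 30607 and 25599 in CCR6+ cells. Each captured library lay above each depleted library, and within the depleted route both libraries numbered 1 were far above both numbered 2. The mean was 11.8 times higher after capture, with a log2 fold change of 3.83 ± 0.76 (adjusted p = 0.0109). Against ChILP the value was 3.59 ± 1.01 (adjusted p = 0.0562), as large but no longer past the threshold. Beta-s (NM_001201391), the major β chain, followed the same order, with 357 to 3750.2 RPKM in depleted and 19364 to 29908 in captured libraries (3.85 ± 0.83, adjusted p = 0.015). Hbb-b1 (NM_008220, Hbb-bt in current RefSeq) ran from 135 to 1074 RPKM to 4870.1 to 7832 (3.57 ± 0.73, adjusted p = 0.0123). Globin genes together took 0.0797 to 0.732% of the reads in depleted and 3.77 to 5.58% in captured libraries. All 5 globin symbols tested rose (median log2 3.83), but they rest on 3 distinct sets of counts, since the files give Hba-a2 the counts of Hba-a1 and Hbb-b2 those of Hbb-b1. Of the 50-base windows of Hba-a1, 67.5% also occur in Hba-a2, and of those of Hbb-bs 65.8% occur in Hbb-bt, so single copies are uncertain. The call of Beta-s was lost without PD-1+ library 1 or PD-1+ library 2 (adjusted p from 0.0529 to 0.0622) and that of Hbb-b1 without PD-1+ library 2 (adjusted p = 0.0546), leaving 2 symbols called of the 6 tested without PD-1+ library 2. With no filter on low counts, 0 of 8 globin symbols passed edgeR's test (adjusted p = 0.0732 for Hba-a1; 5 at an unadjusted p under 0.05), while DESeq2's Wald test and limma, with the filter, called all 5.

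**Figure D1:**
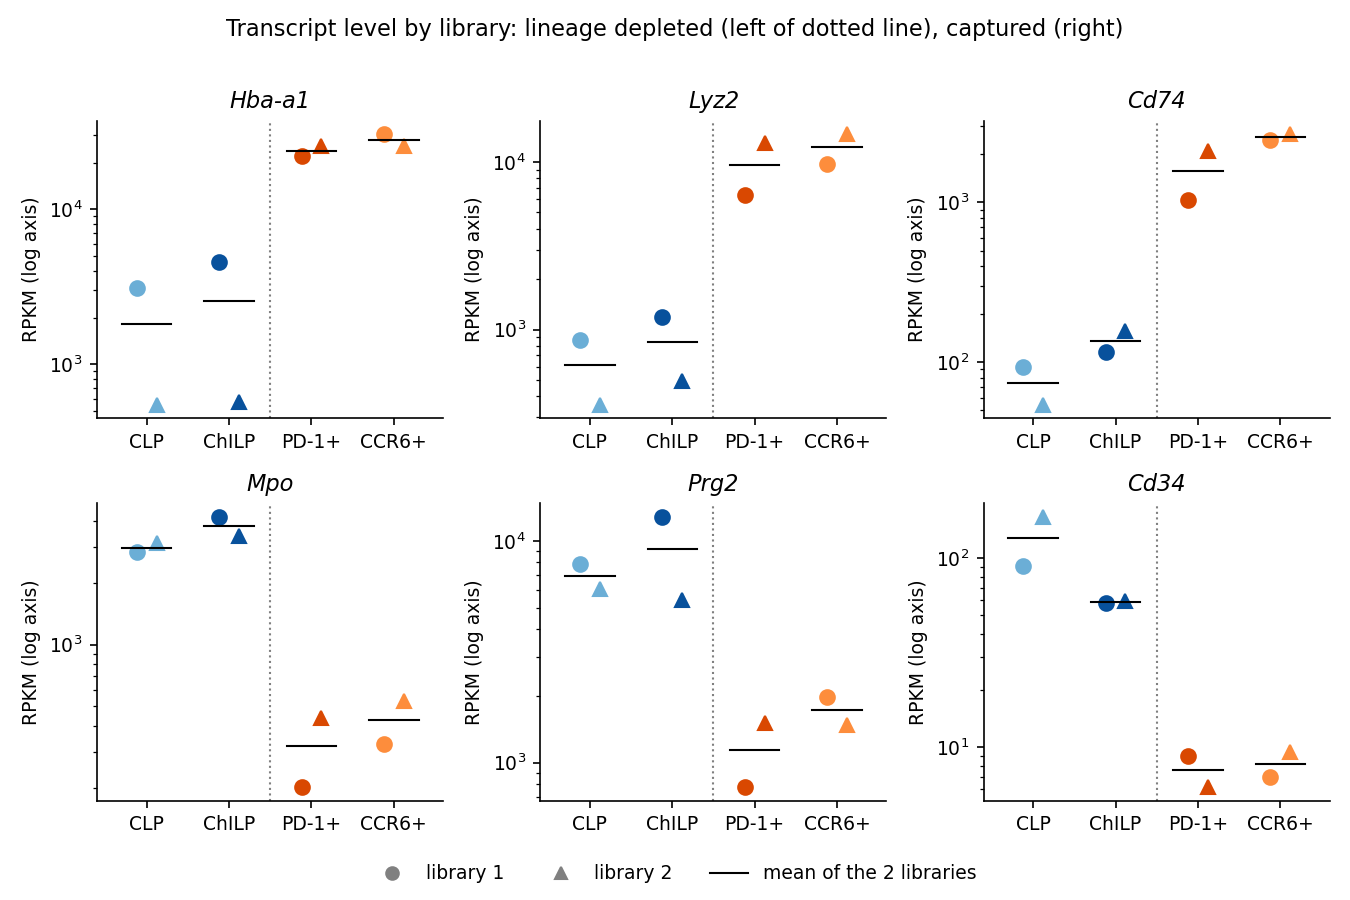
RPKM on a log axis of 6 genes in each library, with lineage-depleted populations left of the dotted line and captured populations right of it. Circles are libraries numbered 1, triangles libraries numbered 2 and lines the mean of 2. Hba-a1, Lyz2 and Cd74 were higher in all 4 captured libraries, and Mpo, Prg2 and Cd34 were higher in all 4 depleted ones.

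Most heme, iron and membrane genes of red cell precursors tested rose with the globins (10 of 15 and 21 of 26), while 2 of 9 early erythroid factors passed the test, in opposite directions. Of all genes tested 11.4% rose and 10.5% fell, so the early erythroid counts are near the shares of all genes. Alas2, the first enzyme of heme synthesis in red cells, stood at 99.5 and 13.2 RPKM in the CLP libraries, 108 and 8.58 in ChILP, 519 and 704 in PD-1+ cells and 833 and 725 in CCR6+ cells (3.85 ± 0.87, adjusted p = 0.0182), its call lost without PD-1+ library 1 or PD-1+ library 2 (adjusted p from 0.0588 to 0.0726). The depleted libraries numbered 2 were the lowest, those numbered 1 lay between, and every captured library was higher. Fech, which inserts iron into heme, rose from 53.3 to 116 to 206 to 339.7 RPKM (2.2 ± 0.30, adjusted p = 0.00286). Bpgm, which makes the bisphosphoglycerate that sets hemoglobin's oxygen affinity, rose from 12.7 to 37.8 to 160.2 to 269 RPKM (3.5 ± 0.37, adjusted p = 0.00162). The median log2 of the 15 heme synthesis and iron uptake genes was 1.06, and 0.91 to 1.26 without 1 library, with fewer genes rising in some of these fits. The 1 that fell was Steap3, a ferrireductase of iron uptake (-1.65, adjusted p = 0.00193).

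Slc4a1, the anion exchanger band 3 of the red cell membrane, stood at 82.4 and 17.2 RPKM in the CLP libraries, 85.2 and 13.2 in ChILP, 369.5 and 455 in PD-1+ cells and 622 and 496 in CCR6+ cells (3.54 ± 0.69, adjusted p = 0.01). The captured libraries were all above the depleted ones, with those numbered 1 again the higher depleted ones. Rhd, the Rh antigen, rose from 109.9 to 215 to 302 to 444 RPKM (1.45 ± 0.23, adjusted p = 0.00495). The 26 membrane and late erythroid genes, of which 1 fell, had a median log2 of 1.59. It ran from 1.44 to 1.85 without 1 library, and fewer genes rose in most of these fits. The exception was Car1, carbonic anhydrase 1, at 449 and 422 RPKM in the CLP libraries, 561 and 591 in ChILP, 87.8 and 104 in PD-1+ cells and 138 and 100.3 in CCR6+ cells (-1.95 ± 0.17, adjusted p = 0.00118). It was lower in every captured library, the opposite of its list. Car2, carbonic anhydrase 2, did not pass, at 0.47 (adjusted p = 0.115).

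Among 9 early erythroid factors and receptors, 1 rose and 1 fell, near the shares of all genes tested (median log2 0.03, a sign that changes with scaling). Klf1 stood at 254 to 396 RPKM in depleted and 229.7 to 375 in captured libraries (0.26 ± 0.19, adjusted p = 0.368), with the ranges nearly the same, and its sign turned to -0.03 with library totals. Gata1 was 88.4 to 159 and 51.7 to 99.7 RPKM (-0.40 ± 0.18, adjusted p = 0.148). Nfe2, a factor of late erythroid and megakaryocyte cells, rose (1.23 ± 0.25, adjusted p = 0.0117), and Gfi1b, a repressor in both lineages, fell (-0.50 ± 0.13, adjusted p = 0.0253). The call of Gfi1b was lost without CLP library 1, CLP library 2, ChILP library 1, ChILP library 2, PD-1+ library 2 or CCR6+ library 2 (adjusted p from 0.0555 to 0.0927). Against ChILP, 6 heme genes and 12 late erythroid genes rose. Without PD-1+ library 2 or either CCR6+ library these counts were 3 and 5 to 7, and without ChILP library 2 they were 0 (edgeR; 6 higher at an unadjusted p under 0.05) and 1. None of the 5 globin symbols passed edgeR's adjusted threshold against ChILP, all 5 had an unadjusted p under 0.05, and DESeq2's Wald test and limma called all 5. Without either CLP library edgeR called 5 globin symbols there, and without ChILP library 1 it called 2.

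**Figure D2:**
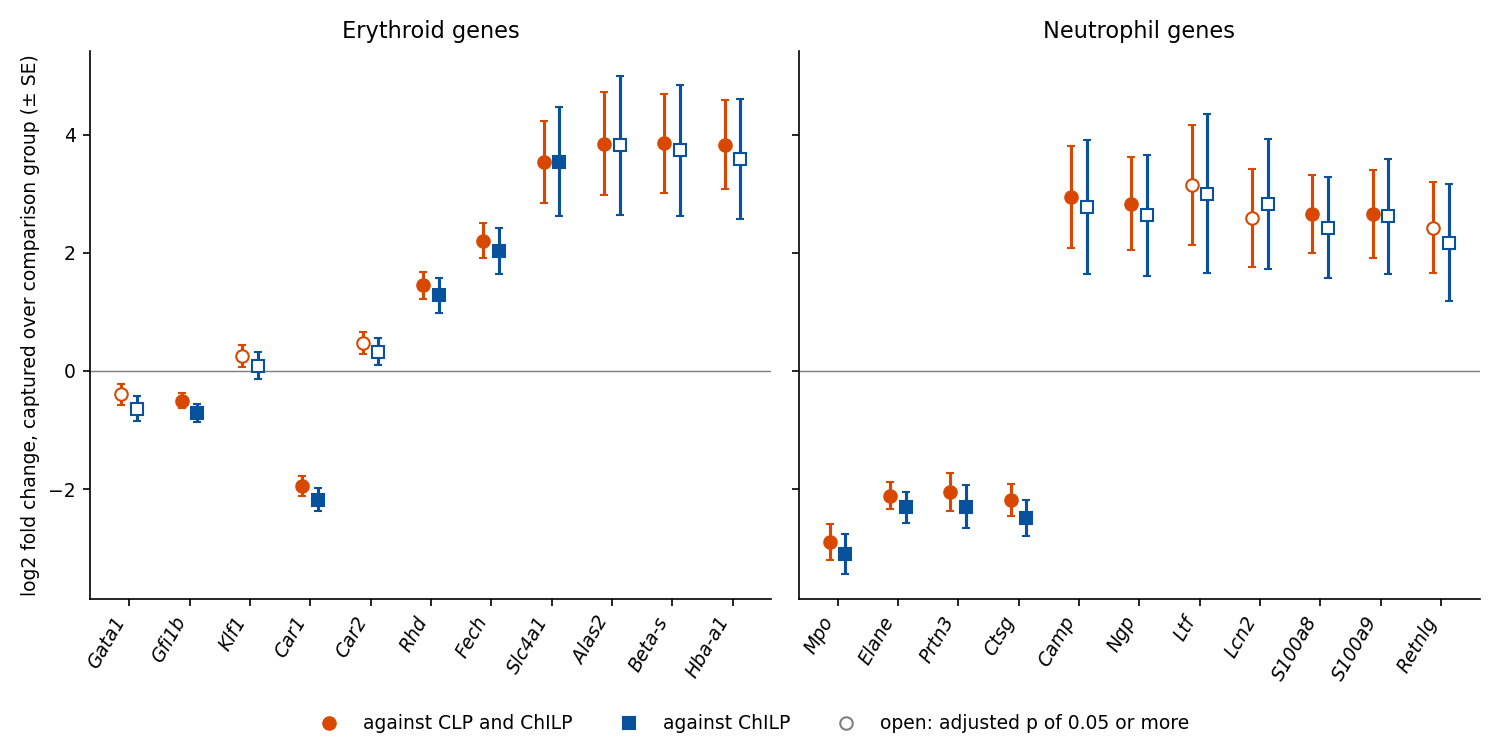
The log2 fold change (± SE) of erythroid genes (left) and neutrophil genes (right) in captured libraries, against CLP and ChILP (circles) and against ChILP (squares), with open symbols for an adjusted p of 0.05 or more. Against CLP and ChILP, Gata1, Klf1 and Gfi1b lie at -0.40, 0.26 and -0.50 and globins near 3.8, while Mpo lies at -2.89 and S100a8 at 2.65. Nfe2 (1.23) and Igsf6 (1.74), which rose, are not drawn.

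Of the neutrophil genes that passed, those of primary granules were nearly all higher in the depleted libraries (8 of 14 genes tested), and those of secondary granules were all higher in the captured ones (8 of 16). Mpo (NM_010824) stood at 2816 and 3121 RPKM in the CLP libraries, 4218 and 3380.1 in ChILP, 201 and 439.98 in PD-1+ cells and 328 and 529.8 in CCR6+ cells. The depleted libraries were close together, and all lay well above the captured ones. Its mean was 9.03 times higher in the depleted libraries, with a log2 fold change of -2.89 ± 0.30 (adjusted p = 0.00162), and -3.1 ± 0.34 against ChILP (adjusted p = 0.00618). Elane, neutrophil elastase, fell from 2323 to 3379 RPKM in depleted to 331 to 685 in captured libraries (-2.11 ± 0.23, adjusted p = 0.00173). Prtn3, proteinase 3, fell from 767 to 1162 to 107 to 289 RPKM (-2.05 ± 0.32, adjusted p = 0.00471), and Ctsg, cathepsin G, from 646 to 1003 to 89.5 to 199 (-2.19 ± 0.27, adjusted p = 0.00226). The 14 primary granule and early myeloid genes, of which 1 rose, had a median log2 of -1.84 and took 1.70 to 2.29% of reads in depleted and 0.260 to 0.461% in captured libraries. Against ChILP 7 fell and none rose, and 1 rose without ChILP library 1 or PD-1+ library 1. The gene that rose was Igsf6, an immunoglobulin superfamily receptor, from 22.02 to 53.3 to 58.99 to 116 RPKM (1.74 ± 0.32, adjusted p = 0.00846). Without CLP library 1 or PD-1+ library 1, 2 of the list rose.

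Camp, the cathelicidin precursor of secondary granules, stood at 365 and 63.2 RPKM in the CLP libraries, 504 and 32.6 in ChILP, 999 and 1945 in PD-1+ cells and 1252 and 1929 in CCR6+ cells (2.94 ± 0.86, adjusted p = 0.0446). The depleted libraries numbered 1 were several times above those numbered 2, and both lay below every captured library. Ngp, neutrophilic granule protein, ran from 57.5 to 519 to 999 to 1918 RPKM (2.83 ± 0.78, adjusted p = 0.0364), and Chi3l3, a chitinase-like protein, from 4.71 to 72.6 to 251 to 550.5 (3.9 ± 0.83, adjusted p = 0.0144). Ltf, lactoferrin (5.27 to 87.1 and 168 to 464 RPKM), and Lcn2, lipocalin 2 (10.3 to 137 and 209.7 to 389 RPKM), did not overlap between routes but did not pass (adjusted p = 0.0615 and 0.0588). Of the 16 secondary granule genes none fell (median log2 2.34), and the count of 8 that rose was 3 without PD-1+ library 2, and 5 without CLP library 2, PD-1+ library 1 or either CCR6+ library. Against ChILP 2 rose, Hp and Padi4, with 1 called without CCR6+ library 2 and 0 without ChILP library 2 (edgeR; 5 at an unadjusted p under 0.05).

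Of 24 mature neutrophil genes tested, 16 rose and none fell (median log2 2.65), and 10 rose without PD-1+ library 2 or CCR6+ library 2. S100a8, a calprotectin subunit, stood at 2026 and 500.1 RPKM in the CLP libraries, 2887 and 543 in ChILP, 4689 and 10076 in PD-1+ cells and 5577 and 10460.3 in CCR6+ cells (2.65 ± 0.66, adjusted p = 0.0253). Each captured library was above each depleted one, and the captured libraries numbered 2 were above those numbered 1. S100a9, its partner, ran from 128 to 1150.4 to 2334 to 4373 RPKM (2.66 ± 0.74, adjusted p = 0.037), and Ccl6, a chemokine of myeloid cells, from 7.38 to 49.5 to 136 to 437 (3.7 ± 0.62, adjusted p = 0.00589). Retnlg, a resistin-like protein of neutrophils, did not pass, at 25.4 to 282 and 282 to 984 RPKM (2.43 ± 0.77, adjusted p = 0.0577). Against ChILP 5 rose (Cxcr2, Il1r2, Csf3r, Ccl6 and G0s2). This count was 8 to 10 without PD-1+ library 1 or either CLP library, 3 without ChILP library 1 or PD-1+ library 2, and 1 without ChILP library 2 or CCR6+ library 2. The call of Ccl6 against ChILP was lost without ChILP library 1, ChILP library 2, PD-1+ library 1, PD-1+ library 2, CCR6+ library 1 or CCR6+ library 2 (adjusted p from 0.0597 to 0.183). The call of S100a8 was lost without CLP library 2, PD-1+ library 1, PD-1+ library 2 or CCR6+ library 2 (adjusted p from 0.0536 to 0.102), that of S100a9 without ChILP library 2, PD-1+ library 1, PD-1+ library 2, CCR6+ library 1 or CCR6+ library 2 (adjusted p from 0.071 to 0.135), that of Camp without CLP library 2, PD-1+ library 1, PD-1+ library 2, CCR6+ library 1 or CCR6+ library 2 (adjusted p from 0.0822 to 0.152), that of Ngp without CLP library 2, ChILP library 2, PD-1+ library 1, PD-1+ library 2, CCR6+ library 1 or CCR6+ library 2 (adjusted p from 0.057 to 0.132) and that of Chi3l3 without PD-1+ library 2 (adjusted p = 0.0645).

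Of 20 monocyte genes, 19 were higher in the captured libraries, and of 18 resident macrophage genes 13 were. Lyz2 (NM_017372) stood at 866 and 356 RPKM in the CLP libraries, 1186 and 490.3 in ChILP, 6387 and 12901 in PD-1+ cells and 9770.3 and 14677 in CCR6+ cells. The lowest captured library was several times the highest depleted one. Its mean was 15.1 times higher after capture (4.19 ± 0.48, adjusted p = 0.00193), and the log2 fold change against ChILP was 3.96 ± 0.64 (adjusted p = 0.0118), a call lost without ChILP library 2 (adjusted p = 0.0664). Of its 50-base windows, 15.4% also occur in Lyz1. Csf1r, the receptor for the monocyte growth factor CSF1, stood at 30.9 and 24.9 RPKM in the CLP libraries, 26.4 and 24.8 in ChILP, 78.8 and 113 in PD-1+ cells and 119 and 130.4 in CCR6+ cells (2.31 ± 0.19, adjusted p = 0.00115), with depleted libraries within a narrow band and all captured ones above it. Ctss, the lysosomal protease cathepsin S, rose from 50.2 to 63.6 to 287 to 588 RPKM (3.27 ± 0.28, adjusted p = 0.00118), and Cd68, a lysosomal membrane protein, from 19.8 to 55.8 to 185 to 353 (3.4 ± 0.37, adjusted p = 0.00173). No monocyte gene fell (median log2 2.72), and the list took 0.216 to 0.417% of reads in depleted and 1.41 to 3.01% in captured libraries. Against ChILP 14 rose, and 6 without ChILP library 2.

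Resident macrophages of the marrow engulf red cell nuclei and dying cells, and make complement C1q. C1qb stood at 42.3 and 6.12 RPKM in the CLP libraries, 33.4 and 14.7 in ChILP, 159.97 and 202 in PD-1+ cells and 283 and 202 in CCR6+ cells (3.38 ± 0.59, adjusted p = 0.00686), with all captured libraries above the depleted ones and CCR6+ library 1 the highest. C1qa rose from 4.17 to 27.8 to 119.8 to 228 RPKM (3.34 ± 0.52, adjusted p = 0.00455) and C1qc from 10.6 to 36.8 to 159.7 to 295 (3.56 ± 0.47, adjusted p = 0.00266). Apoe, apolipoprotein E, rose from 110.3 to 251 to 1040.2 to 1552 RPKM (2.93 ± 0.29, adjusted p = 0.00141), and Hmox1, which breaks down heme, from 10.7 to 37.3 to 92.9 to 220.03 (2.89 ± 0.38, adjusted p = 0.00258). No macrophage gene fell (median log2 2.72, and 2.34 to 3.70 without 1 library, with fewer genes rising in most of these fits). Against ChILP 8 rose, 5 without PD-1+ library 2, 4 without CCR6+ library 1 and 0 without ChILP library 2 (edgeR; 10 at an unadjusted p under 0.05). Of 9 Fc receptor genes 8 rose (median log2 3.07), and against ChILP 5 rose, with fewer without ChILP library 2. The median against ChILP was 2.83, and 2.03 to 3.64 without 1 library. That list does not stand for macrophages alone. It also holds Fcer2a and Fcrla from the mature B cell list and Fcer1a from the basophil and mast cell list. The high-affinity IgG receptor Fcgr1 went from 0.541 to 1.06 RPKM in depleted to 15.3 to 21.3 in captured libraries (4.95 ± 0.30, adjusted p = 0.000841).

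**Figure D3:**
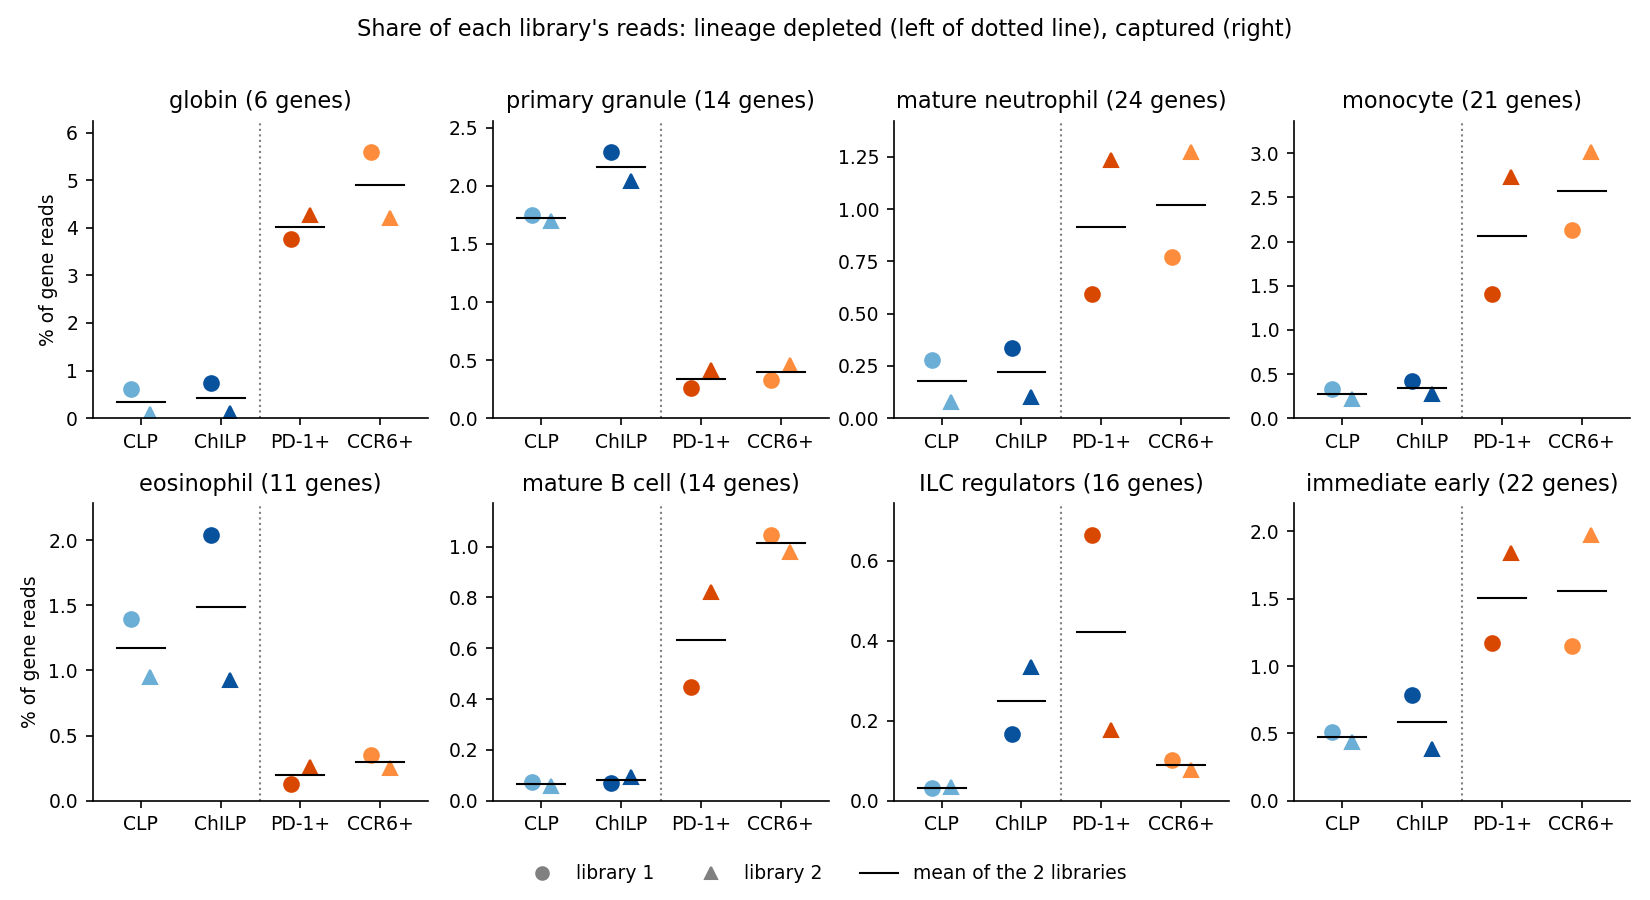
Share of each library's gene reads (%, linear axes from 0) taken by 8 gene lists, with depleted populations left of the dotted line, captured ones right of it, circles and triangles for libraries 1 and 2, and lines for the mean of 2. Monocyte genes take 1.41 to 3.01% in captured libraries, and ILC regulators reach 0.665% in PD-1+ library 1 and 0.334% in ChILP library 2.

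Of 10 eosinophil genes, 6 fell in the captured libraries and 1 rose (median log2 -1.94). Prg2, major basic protein, stood at 7859 and 6092 RPKM in the CLP libraries, 12880.5 and 5418 in ChILP, 776 and 1513 in PD-1+ cells and 1975 and 1480.5 in CCR6+ cells, with every depleted library above every captured one and ChILP library 1 the highest. Its log2 fold change was -2.22 ± 0.35 (adjusted p = 0.00483), and -2.44 ± 0.40 against ChILP (adjusted p = 0.012), a call lost without ChILP library 1 (adjusted p = 0.0536). Epx, eosinophil peroxidase, fell from 355 to 920.2 RPKM in depleted to 31.04 to 101 in captured libraries (-2.64 ± 0.42, adjusted p = 0.00478), and Prg3 from 255 to 629 to 35.8 to 85.4 (-2.3 ± 0.37, adjusted p = 0.00491). The eosinophil ribonucleases fell as well: Ear6 by a log2 fold change of -2.15, Ear1 by -2.18 and Ear2 by -1.74 (adjusted p = 0.00508, 0.0139 and 0.011). Of the 50-base windows of Ear1, 23.8% also occur in Ear2, so these copies are uncertain. The list took 0.928 to 2.04% of reads in depleted and 0.131 to 0.347% in captured libraries. The gene that rose was Ccr3, the eotaxin receptor of mature eosinophils and basophils, at 2.14 and 0 RPKM in the CLP libraries, 4.07 and 0.93 in ChILP, 8.45 and 15.02 in PD-1+ cells and 16.03 and 15.1 in CCR6+ cells (3.32 ± 0.98, adjusted p = 0.045). It was low in the depleted libraries, where the granule genes were high. Its call was lost without ChILP library 1, ChILP library 2, PD-1+ library 1, PD-1+ library 2, CCR6+ library 1 or CCR6+ library 2 (adjusted p from 0.0517 to 0.127). Against ChILP 6 fell, and 1 without ChILP library 1.

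Few basophil and mast cell genes passed the test. Among all genes tested, 11.4% rose and 10.5% fell. Mcpt8, the basophil protease, stood at 201 and 181 RPKM in the CLP libraries, 273 and 104 in ChILP, 231 and 636 in PD-1+ cells and 394 and 707 in CCR6+ cells (1.65 ± 0.42, adjusted p = 0.0283), with an overlap between ChILP library 1 and PD-1+ library 1. Fcer1a, the α chain of the IgE receptor, rose from 3.73 to 9.34 to 12.3 to 64.8 RPKM (3.07 ± 0.63, adjusted p = 0.0121). Prss34, another basophil protease, did not pass (1.48 ± 0.54, adjusted p = 0.0869). Of 13 genes, 3 rose (Mcpt8, Fcer1a and Cpa3, at 0.76) and none fell (median log2 0.79). Only 1 rose without CLP library 1, CLP library 2, ChILP library 2 or CCR6+ library 2, and none passed against ChILP (edgeR; at an unadjusted p under 0.05, 3 were higher and 1 lower), while 2 were higher without PD-1+ library 1 and 1 lower without PD-1+ library 2. DESeq2's Wald test called 2 higher there, and limma 1 higher and 1 lower. The call of Mcpt8 was lost without CLP library 1, CLP library 2, ChILP library 2, PD-1+ library 2 or CCR6+ library 2 (adjusted p from 0.0624 to 0.0893) and that of Cpa3 without CLP library 1, CLP library 2, ChILP library 1, ChILP library 2, PD-1+ library 1 or CCR6+ library 2 (adjusted p from 0.0731 to 0.11).

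Megakaryocyte and platelet genes were lower in the captured libraries where they passed. Among all genes tested, 10.5% fell between routes and 6.19% against ChILP. Pf4, platelet factor 4, stood at 367 and 309.9 RPKM in the CLP libraries, 701 and 415 in ChILP, 171 and 71.2 in PD-1+ cells and 101 and 219 in CCR6+ cells (-1.39 ± 0.34, adjusted p = 0.0236), and Gp5, a platelet glycoprotein, at 40.1 and 29.3 RPKM in the CLP libraries, 154 and 38.4 in ChILP, 6.79 and 7.59 in PD-1+ cells and 21.1 and 17.6 in CCR6+ cells (-2.02 ± 0.40, adjusted p = 0.0111). In both, ChILP library 1 was the highest and the routes did not overlap. Ppbp, platelet basic protein, overlapped through CCR6+ library 2, at 144 RPKM (-1.99 ± 0.59, adjusted p = 0.0467). In all, 4 of 17 genes fell and none rose (median log2 -1.39), and 2 fell without CLP library 1, ChILP library 1 or CCR6+ library 1. Against ChILP 6 fell, 2 without CCR6+ library 1 and 1 without ChILP library 1. The call of Pf4 was lost without CLP library 1, ChILP library 1 or CCR6+ library 1 (adjusted p from 0.0531 to 0.0582) and that of Ppbp without CLP library 1, CLP library 2, ChILP library 1, PD-1+ library 1, PD-1+ library 2 or CCR6+ library 1 (adjusted p from 0.0647 to 0.198).

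Mature B cell genes gave the highest list median of all, 4.32, in the captured libraries. Cd74, the invariant chain of MHC class II, stood at 93.1 and 54.2 RPKM in the CLP libraries, 115 and 158 in ChILP, 1035 and 2099.5 in PD-1+ cells and 2454 and 2682 in CCR6+ cells. The lowest captured library was several times the highest depleted one. Its mean was 19.7 times higher after capture (4.6 ± 0.34, adjusted p = 0.00092), and against ChILP the log2 fold change was 4.14 ± 0.46 (adjusted p = 0.00618). The class II chains H2-Ab1 (from 71.1 to 111 to 631 to 1515 RPKM) and H2-Aa (from 12.5 to 64.8 to 373 to 913) rose as well (4.0 ± 0.24 and 4.22 ± 0.46, adjusted p = 0.000841 and 0.00173). Class II is also made by macrophages and dendritic cells, but CD20 and CD23 are more restricted. Ms4a1, which encodes CD20, stood at 0.136 and 0 RPKM in the CLP libraries, 1.41 and 0 in ChILP, 9.53 and 20.9 in PD-1+ cells and 19.01 and 29.6 in CCR6+ cells (6.77 ± 1.1, adjusted p = 0.00521), and Fcer2a, which encodes the low-affinity IgE receptor CD23, at 0.125 and 0 RPKM in the CLP libraries, 0.391 and 0 in ChILP, 10.04 and 22.5 in PD-1+ cells and 26.1 and 20.8 in CCR6+ cells (7.76 ± 0.90, adjusted p = 0.00193). Both were at or near 0 in every depleted library and present in every captured one. Of 14 genes, 11 rose and none fell, and against ChILP 10 rose, with 5 left without ChILP library 2.

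Early B lineage genes were divided. Cd79a, a signalling chain of the B cell receptor, stood at 53.4 and 56.7 RPKM in the CLP libraries, 7.43 and 0.537 in ChILP, 83.4 and 102 in PD-1+ cells and 129 and 119.6 in CCR6+ cells (3.13 ± 0.58, adjusted p = 0.00824): it was high in CLP already and low in ChILP. Dntt, the terminal transferase of receptor gene rearrangement, stood at 818 and 1449 RPKM in the CLP libraries, 56.9 and 70.5 in ChILP, 46.1 and 14.8 in PD-1+ cells and 4.22 and 11.3 in CCR6+ cells (-3.86 ± 0.44, adjusted p = 0.00193), and Rag2 at 18.4 and 29.7 RPKM in the CLP libraries, 2.57 and 0.783 in ChILP, 0.385 and 0.29 in PD-1+ cells and 0 and 0.142 in CCR6+ cells (-4.99 ± 0.64, adjusted p = 0.00252). For both, most of the depleted signal was in CLP, and against ChILP the log2 fold changes were -1.82 ± 0.46 and -3.1 ± 0.69 (adjusted p = 0.041 and 0.0271). The call of Dntt against ChILP was lost without ChILP library 1, ChILP library 2, PD-1+ library 2 or CCR6+ library 1 (adjusted p from 0.0519 to 0.18) and that of Rag2 without CLP library 2 or ChILP library 1 (adjusted p from 0.0578 to 0.158). In a fit of the 6 libraries compared, with PD-1+ and CCR6+ pooled, neither passed (adjusted p = 0.223 and 0.253), nor with the replicate block (adjusted p = 0.063 and 0.0523). Pooling counts differences between PD-1+ and CCR6+ cells as spread. Of 16 pro-B and pre-B genes, 4 rose, Cd79a, Cd79b and Cd24a among them, and 2 fell (median log2 0.10, a sign that changes with scaling and with the library left out). Among all genes tested, 11.4% rose and 10.5% fell, so the count of 2 that fell is near the share of all genes. Igj, the joining chain of secreted IgM and IgA, rose from 8.26 to 48.1 to 242 to 603 RPKM (4.12 ± 0.53, adjusted p = 0.00251), and 4 of 14 plasma cell genes rose (Igj, Tnfrsf17, Edem1 and 2010001M09Rik, now Mzb1), with none lower (median log2 0.98). That count was 2 without CLP library 2 and 8 without PD-1+ library 1.

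Of 17 T cell genes 9 rose, and of 16 NK cell and ILC1 genes 10 rose, with none lower in either list. The T cell list took 0.0239 to 0.0572% of reads in depleted and 0.0341 to 0.106% in captured libraries. For the NK cell and ILC1 list the shares were 0.00399 to 0.0363% and 0.0353 to 0.07935%. Both lists' shares thus overlapped between routes. Cd2, an adhesion receptor of T, NK and B cells, stood at 0.327 and 0 RPKM in the CLP libraries, 0.67 and 0 in ChILP, 7.698 and 23.8 in PD-1+ cells and 31.1 and 23.99 in CCR6+ cells (6.76 ± 1.05, adjusted p = 0.00454), close to 0 in all depleted libraries. Cd4 rose from 1.902 to 3.64 to 6.82 to 26.2 RPKM (2.72 ± 0.35, adjusted p = 0.0025), with CCR6+ library 1 the highest. LTi cells and some dendritic cells also carry CD4. The median log2 of the T cell list was 2.44. Gzma, granzyme A, rose from 0.623 to 4.86 to 12.2 to 29.1 RPKM (3.4 ± 0.51, adjusted p = 0.004), with PD-1+ library 1 the highest. Ccl5, a chemokine of NK and T cells, stood at 16.7 and 7.08 RPKM in the CLP libraries, 205 and 289 in ChILP, 574 and 273 in PD-1+ cells and 161 and 178 in CCR6+ cells (2.56 ± 0.33, adjusted p = 0.00258): it was low in CLP alone and did not pass against ChILP (0.35 ± 0.38, adjusted p = 0.606). The median log2 of the NK cell and ILC1 list was 2.53, and 6 of its genes rose without CLP library 1, CLP library 2, ChILP library 2 or CCR6+ library 2. Against ChILP 5 T cell genes and 3 NK genes rose. The T cell count was 3 without either CLP library or PD-1+ library 2, 2 without ChILP library 1 or CCR6+ library 1, and 1 without CCR6+ library 2, where 1 T cell gene also fell. The NK count was 1 without ChILP library 1 or either CCR6+ library, and there were 0 of either without ChILP library 2 (edgeR; 6 and 5 at an unadjusted p under 0.05).

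In the plasmacytoid and dendritic cell list, 12 of 20 genes rose and none fell (median log2 1.91; 1 fell without CCR6+ library 2), and against ChILP 9 rose. Irf7, the interferon response factor that plasmacytoid cells hold at a high level, rose from 24.1 to 45.4 to 95.96 to 176 RPKM (2.34 ± 0.20, adjusted p = 0.00115). Siglech, a surface lectin of these cells, stood at 18.9 and 18.9 RPKM in the CLP libraries, 4.39 and 6.19 in ChILP, 26.2 and 23.7 in PD-1+ cells and 41.99 and 26.1 in CCR6+ cells (1.82 ± 0.22, adjusted p = 0.00209), lower in ChILP than in CLP and highest in CCR6+ library 1. Against ChILP the count was 2 without ChILP library 1, 3 without ChILP library 2 and 5 without CCR6+ library 1.

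Of 22 stem and multipotent progenitor genes, 9 fell in the captured libraries and none rose (median log2 -1.32), with 5 lower without CLP library 2. Cd34, the sialomucin of early progenitors, stood at 90.8 and 167 RPKM in the CLP libraries, 58.4 and 59.8 in ChILP, 8.98 and 6.15 in PD-1+ cells and 6.92 and 9.42 in CCR6+ cells (-3.19 ± 0.22, adjusted p = 0.000841). The captured libraries lay close together, far below every depleted one, and the difference was there against ChILP alone (-2.67 ± 0.24, adjusted p = 0.00403). Against ChILP 4 fell, Cd34, Hoxa9 and Angpt1 among them. That count was 2 without either CLP library, ChILP library 2, PD-1+ library 2 or CCR6+ library 1, and 1 without ChILP library 1. Of 18 stromal and endothelial genes, 5 fell (Col1a1, Col1a2, Sparc, Bglap and Pdgfrb) and none rose. Col1a1, a collagen of bone-forming cells, stood at 125 and 80.9 RPKM in the CLP libraries, 176 and 0.427 in ChILP, 0.527 and 0.236 in PD-1+ cells and 0.478 and 1.07 in CCR6+ cells (-7.18 ± 1.5, adjusted p = 0.013). It was high in 3 depleted libraries, while ChILP library 2 lay among the captured ones, and without ChILP library 1 the value against ChILP turned from -7.09 to 0.58. The call of Col1a1 was lost without PD-1+ library 1, PD-1+ library 2, CCR6+ library 1 or CCR6+ library 2 (adjusted p from 0.0607 to 0.0995). Sparc, osteonectin, fell from 16.1 to 56.7 to 3.35 to 5.76 RPKM without overlap (-2.93 ± 0.44, adjusted p = 0.004), and Bglap, osteocalcin, stood at 0.543 to 46.4 and 0 to 1.18 RPKM with overlap (-5.07 ± 1.36, adjusted p = 0.0333). The call of Bglap was lost without CLP library 1, CLP library 2, ChILP library 1, PD-1+ library 1, CCR6+ library 1 or CCR6+ library 2 (adjusted p from 0.0599 to 0.151), and its log2 fold change ran from -7.69 to -2.64 over the fits without 1 library. The list median was -0.61, between -1.97 and -0.07 without 1 library, and it turned to 0.28 with CLP library 2 and ChILP library 2 as the only depleted libraries. The count of 5 stromal genes was 2 without either CCR6+ library and 3 without CLP library 1 or 2, ChILP library 1, or PD-1+ library 1 or 2.

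**Figure D4:**
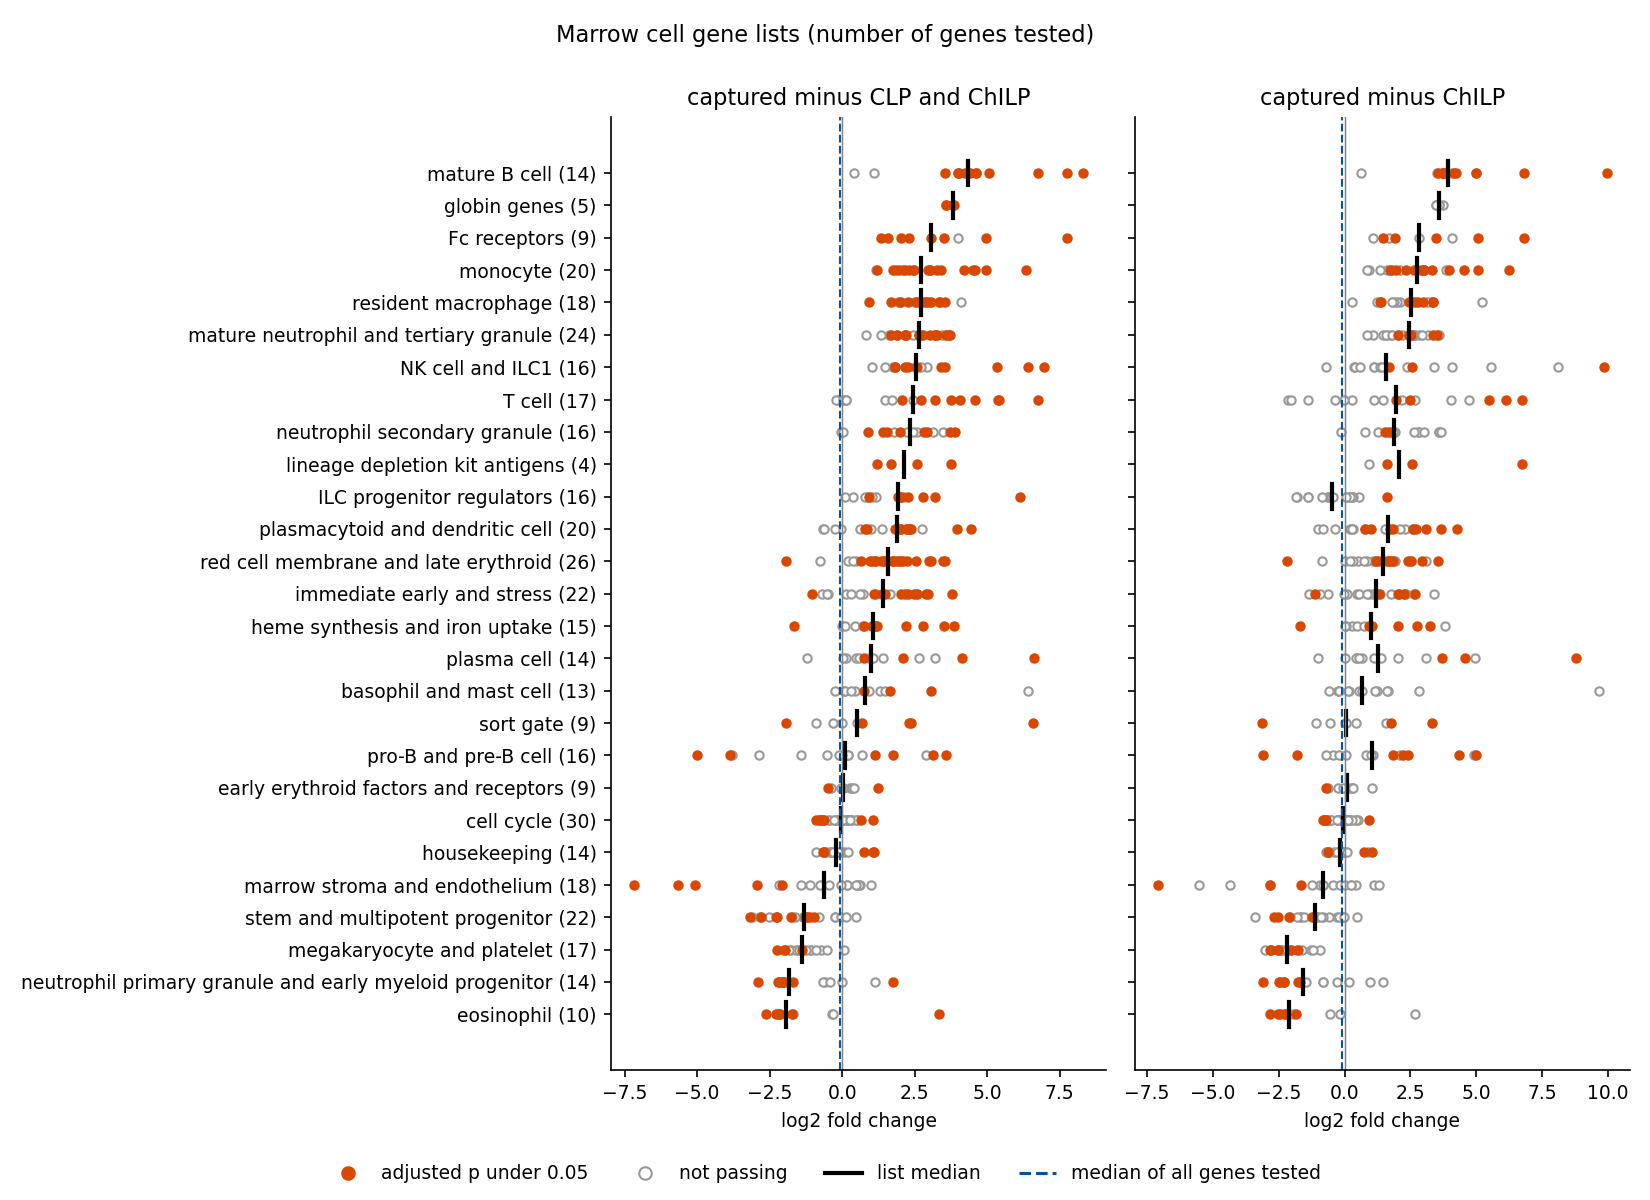
Log2 fold change of each tested gene in 27 marrow cell gene lists, captured minus CLP and ChILP (left) and captured minus ChILP (right); filled points passed an adjusted p under 0.05, bars are list medians and the dashed line is the median of all genes tested. Mature B cell genes have the highest median (4.32) and eosinophil genes the lowest (-1.94) against CLP and ChILP.

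The antigens that the depletion step itself targets were compared next. The kit's antibodies bind, among others, CD5, CD45R (from Ptprc), CD11b (from Itgam) and Gr-1 (Ly6g and Ly6c). Itgam stood at 6.11 and 4.44 RPKM in the CLP libraries, 5.82 and 4.72 in ChILP, 15.8 and 31.6 in PD-1+ cells and 21.7 and 35.3 in CCR6+ cells (2.58 ± 0.31, adjusted p = 0.00209), Ptprc at 18.3 and 22.2 RPKM in the CLP libraries, 23.2 and 19.99 in ChILP, 44.8 and 64.5 in PD-1+ cells and 45.8 and 66.1 in CCR6+ cells (1.69 ± 0.19, adjusted p = 0.00193). In both, all captured libraries were above all depleted ones. Ptprc reads do not tell the CD45R form from the others. Ly6c2 rose with overlap, at 339 to 577 and 557 to 1178 RPKM (1.21 ± 0.26, adjusted p = 0.0143), its call lost without CLP library 2 (adjusted p = 0.052), and 21.0% of its 50-base windows also occur in Ly6c1, which was too low to test. Cd5 rose at low levels (0 to 1.49 and 0.769 to 3.06 RPKM, 3.75 ± 1.02, adjusted p = 0.0345), its call lost without CLP library 1, CLP library 2, ChILP library 1, ChILP library 2, PD-1+ library 2 or CCR6+ library 2 (adjusted p from 0.0542 to 0.127). All 4 antigen genes tested thus rose (median log2 2.13), 2 of them without CLP library 2, and against ChILP 3 rose, or 0 without ChILP library 2 (edgeR; 3 at an unadjusted p under 0.05).

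The genes of the sort gates followed the labels in part. Flt3, the receptor used to separate CLP, was 92.1 and 157 RPKM in CLP and 5.102 to 10.3 in ChILP, 6.55 and 5.54 in PD-1+ cells and 7.98 and 6.698 in CCR6+ cells (-1.94 ± 0.25, adjusted p = 0.00259; against ChILP 0.03 ± 0.30, adjusted p = 0.973). Pdcd1, which encodes PD-1, stood at 0.823 and 0.319 RPKM in the CLP libraries, 70.9 and 92.8 in ChILP, 181 and 36.3 in PD-1+ cells and 0 and 1.102 in CCR6+ cells, and Ccr6 at 0 and 0 RPKM in the CLP libraries, 3.84 and 8.21 in ChILP, 0 and 8.11 in PD-1+ cells and 84.2 and 23.6 in CCR6+ cells. PD-1+ library 1 was free of Ccr6, while PD-1+ library 2 held less Pdcd1 than either ChILP library and also held Ccr6, although its gate was CCR6-. Between routes Pdcd1 did not pass (0.51, adjusted p = 0.679) and Ccr6 did (6.57, adjusted p = 0.0411). Against ChILP Pdcd1 fell (-3.12, adjusted p = 0.0361) and Ccr6 did not pass (1.58, adjusted p = 0.504). Both genes encode proteins used to sort the captured cells, with the CCR6+ cells gated as PD-1-, so these values cannot be read as differences of route. Neither call held with the replicate block (adjusted p = 0.0588 for Ccr6 and 0.0557 for Pdcd1). In edgeR's fit of the 6 libraries compared, with PD-1+ and CCR6+ pooled, Pdcd1 was -0.41 (adjusted p = 0.929). Without 1 library the value of Ccr6 between routes ran from 1.72 to 7.11 and that of Pdcd1 against ChILP from -6.75 to -2.68. The Ccr6 call held in 1 of these 8 fits and the Pdcd1 call in 4. Itgb7, the β7 chain of the captured integrin, stood at 40.4 and 29.2 RPKM in the CLP libraries, 67.5 and 71.3 in ChILP, 187 and 199.7 in PD-1+ cells and 174 and 237 in CCR6+ cells (2.29 ± 0.18, adjusted p = 0.00115), with every captured library above every depleted one, and 1.77 ± 0.23 against ChILP (adjusted p = 0.00787), although both gates require the integrin. Itga4, the α4 chain, overlapped (8.14 to 12.01 and 9.27 to 19.4 RPKM, 0.69 ± 0.19, adjusted p = 0.0343), and its call was lost without CLP library 1, CLP library 2, ChILP library 1, ChILP library 2, PD-1+ library 1 or CCR6+ library 1 (adjusted p from 0.0533 to 0.111). Ly6a, which encodes Sca1, stood at 30.1 and 31.4 RPKM in the CLP libraries, 4.89 and 10.6 in ChILP, 39.6 and 62.4 in PD-1+ cells and 95.01 and 72.4 in CCR6+ cells (2.36 ± 0.31, adjusted p = 0.00262): it is part of the CLP gate only, yet the captured libraries were highest. Il7r, which encodes CD127 and is required in all gates, overlapped (19.2 to 35.4 and 12.2 to 45.2 RPKM, 0.01 ± 0.40, adjusted p = 1), as did Kit (-0.90 ± 0.40, adjusted p = 0.152). Il1rl1, which encodes T1/ST2, was 2.22 to 6.63 RPKM in depleted and 0.0678 to 4.45 in captured libraries (-0.33 ± 0.94, adjusted p = 0.844).

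The regulators that define ILC progenitors varied widely between the libraries of one route. Gata3, the factor named in the series title, stood at 1.86 and 2.74 RPKM in the CLP libraries, 51.1 and 117 in ChILP, 316 and 62.8 in PD-1+ cells and 10.8 and 11.97 in CCR6+ cells (1.99 ± 0.47, adjusted p = 0.0215). It was near 0 in CLP, and its range in ChILP lay inside that of the captured libraries (-0.63 ± 0.54 against ChILP, adjusted p = 0.494). Tcf7, which encodes TCF-1, stood at 0.546 and 1.11 RPKM in the CLP libraries, 58.5 and 102 in ChILP, 238 and 45.9 in PD-1+ cells and 20.4 and 12.1 in CCR6+ cells (2.8 ± 0.52, adjusted p = 0.00828, and -0.52 ± 0.55 against ChILP, adjusted p = 0.594). Id2, an inhibitor of E proteins, stood at 27.3 and 27.9 RPKM in the CLP libraries, 228 and 327 in ChILP, 696 and 226 in PD-1+ cells and 221 and 164 in CCR6+ cells (2.03 ± 0.32, adjusted p = 0.00478), and Rora, a nuclear receptor, at 3.18 and 2.24 RPKM in the CLP libraries, 76.7 and 165 in ChILP, 307 and 73.7 in PD-1+ cells and 24.6 and 10.7 in CCR6+ cells (1.93 ± 0.49, adjusted p = 0.0282). The call of Gata3 was lost without CLP library 1 or CLP library 2 (adjusted p from 0.0585 to 0.0641) and that of Rora without CLP library 1, CLP library 2, ChILP library 1 or CCR6+ library 1 (adjusted p from 0.0544 to 0.0961). In all 4 genes PD-1+ library 1 was the highest of the 8. Of 16 regulators, 9 rose against the mean of CLP and ChILP (median log2 1.94), and 1 when differences between populations of a route were counted as spread. Without 1 library the median ran from 1.31 to 2.14, with fewer genes rising in most of these fits. Against ChILP 1 rose, Nfil3, from 6.93 to 15.1 RPKM over the depleted to 22.4 to 38.9 over the captured libraries (1.6 ± 0.34, adjusted p = 0.0231), a call lost without ChILP library 1 or ChILP library 2 (adjusted p from 0.0739 to 0.121). The median there was -0.47, turning to 0.14 without ChILP library 2, and 3 fell without PD-1+ library 1. The count of 1 in 16 against ChILP is near the 6.06% of all genes tested that rose there. Within the captured route the list's share of reads was 0.665% in PD-1+ library 1, 0.178% in PD-1+ library 2, and 0.103 and 0.0779% in the CCR6+ libraries. The monocyte list's share was 1.41% in PD-1+ library 1, 2.73% in PD-1+ library 2, and 2.13 and 3.01% in the CCR6+ libraries. Its part in the ILC regulator result was not tested.

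Of 22 immediate early and stress genes, which cells induce soon after stimulation or handling, 11 rose after capture and 1 fell (median log2 1.42). Fos stood at 209.5 and 178 RPKM in the CLP libraries, 337 and 166 in ChILP, 1061 and 1589 in PD-1+ cells and 1014 and 1705 in CCR6+ cells (2.88 ± 0.31, adjusted p = 0.00171), and Junb at 205 and 178 RPKM in the CLP libraries, 379.8 and 132 in ChILP, 639 and 1019 in PD-1+ cells and 697 and 1204 in CCR6+ cells (2.28 ± 0.37, adjusted p = 0.00526). All captured libraries were above all depleted ones, and the captured libraries numbered 2 were above those numbered 1. Dusp1, a phosphatase of the same response, rose from 60.1 to 257 to 405 to 1283 RPKM (2.96 ± 0.57, adjusted p = 0.0098). The list took 0.384 to 0.785% of reads in depleted and 1.15 to 1.97% in captured libraries. The gene that fell was Hsp90aa1, a stress-induced chaperone (-1.05 ± 0.15, adjusted p = 0.00318). Without PD-1+ library 2, 10 rose and 2 fell. Against ChILP 5 rose (Fos, Fosl2, Jun, Junb and Zfp36), 8 without ChILP library 1, 3 without PD-1+ library 2, 2 without CCR6+ library 2 and 0 without ChILP library 2 (edgeR; 8 higher and 1 lower at an unadjusted p under 0.05). Mature myeloid cells also make these transcripts, and the monocyte list moved with them. Their part in this result was not tested.

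Of 30 cell cycle genes 22 did not pass. For the counts in this paragraph, 11.4% of all genes tested rose and 10.5% fell. The 6 that fell encode subunits of the MCM helicase, which licenses replication. Mcm6 stood at 240.4 and 297 RPKM in the CLP libraries, 236 and 218 in ChILP, 115 and 101 in PD-1+ cells and 115 and 106 in CCR6+ cells (-0.90 ± 0.12, adjusted p = 0.00263), with no overlap. Mki67 (1.05 ± 0.19, adjusted p = 0.00783) and Birc5 (0.66 ± 0.15, adjusted p = 0.018), rose. The list median was -0.03 and changed sign with scaling and with the library left out, and without CLP library 2, ChILP library 2 or CCR6+ library 2, 4 fell and 1 rose. The call of Birc5 was lost without CLP library 2, ChILP library 2 or CCR6+ library 2 (adjusted p from 0.0523 to 0.0653). Of 14 housekeeping genes, 3 rose, Actb and B2m among them, and 2 fell (Eef1a1 and Rplp0), with a median of -0.22, and 0 or 1 fell without either CLP or CCR6+ library, ChILP library 2 or PD-1+ library 1.

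The genes that separated the routes by the largest fold included several outside these lists. Among genes whose mean reached 10 RPKM in the higher route, with no overlap, the 10 furthest up after capture were Apol11a, Fcer2a, Ms4a1, Cd2, Ccl2, Apol11b, Galnt9, Ms4a8a, Apoc2 and H2-Q10. Apol11a, an apolipoprotein L family gene, had 0 reads in all 4 depleted libraries and 1174 in the captured ones, at 11.9 and 23.3 RPKM in PD-1+ and 17.5 and 20.5 in CCR6+. Against a floor of 3 counts over the depleted group, it was at least 410-fold higher. Apol11b stood at 6.91 and 0.0997 RPKM in the CLP libraries, 5.83 and 0.661 in ChILP, 101 and 129 in PD-1+ cells and 164 and 131 in CCR6+ cells (5.54 ± 1.03, adjusted p = 0.00854), and 15.3% of the 50-base windows of Apol11a also occur in Apol11b. Ccl2, a chemokine that draws monocytes, stood at 0.812 and 0.509 RPKM in the CLP libraries, 5.91 and 0 in ChILP, 35.8 and 70.5 in PD-1+ cells and 37.8 and 76.6 in CCR6+ cells (5.58 ± 1.01, adjusted p = 0.00763), with the captured libraries numbered 2 above those numbered 1. Apoc2, an activator of lipoprotein lipase, ran from 0 to 3.21 to 39.9 to 70.4 RPKM, Ms4a8a from 0.12 to 2.27 to 19.2 to 26.1, Galnt9, a glycosyltransferase, from 0 to 1.797 to 13.6 to 29.3, and H2-Q10, a class I-like gene, from 0.044 to 1.56 to 7.15 to 26.4. Their log2 fold changes were 5.25, 5.31, 5.44 and 5.19 (adjusted p = 0.00543, 0.00199, 0.00348 and 0.0078). Ccl2 did not pass against ChILP (4.46, adjusted p = 0.0562), while the others of these 10 did. There the calls of Apol11b (adjusted p = 0.0407) and H2-Q10 (adjusted p = 0.0465) each held in 2 of the 8 fits without 1 library. H2-Q10 belongs to a family of similar genes and is uncertain for that reason. Psap, the precursor of lysosomal saposins, was among the most abundant genes that rose, from 359 to 395 to 1148 to 2039.8 RPKM (2.42 ± 0.22, adjusted p = 0.00138).

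On the depleted side the 10 were C85492 (Pomgnt2 in current RefSeq), Mir144, Rag2, 2610307P16Rik, Arpp21, Dntt, AI848285 (Shisa8), Sh2d5, Cd34 and Fam69b (Dipk1b). Pomgnt2, a glycosyltransferase, stood at 9.07 and 27.1 RPKM in the CLP libraries, 4.32 and 5.03 in ChILP, 0.029 and 0.494 in PD-1+ cells and 0 and 0.029 in CCR6+ cells (-6.67 ± 0.92, adjusted p = 0.00296), close to 0 in all captured libraries. Arpp21, a phosphoprotein that lymphoid progenitors express, stood at 14.3 and 26.3 RPKM in the CLP libraries, 3.28 and 4.997 in ChILP, 2.21 and 1.04 in PD-1+ cells and 0 and 0.301 in CCR6+ cells (-3.88 ± 0.64, adjusted p = 0.0055), with the CLP libraries the highest. The same order, CLP above ChILP above captured, held for AI848285, Sh2d5, Fam69b and 2610307P16Rik by library means, with log2 fold changes of -3.74, -3.38, -3.05 and -3.89 (adjusted p = 0.00817, 0.0389, 0.0286 and 0.00679). Against ChILP, AI848285, Sh2d5, Fam69b and Mir144 did not pass (adjusted p = 0.135, 0.193, 0.157 and 0.0596). The call of Sh2d5 was lost without CLP library 1, CLP library 2, ChILP library 1, ChILP library 2, CCR6+ library 1 or CCR6+ library 2 (adjusted p from 0.0597 to 0.134) and that of Fam69b without CLP library 2, ChILP library 2, PD-1+ library 1 or PD-1+ library 2 (adjusted p from 0.0647 to 0.0927). Mir144 (NR_029556), the hairpin of a microRNA of red cell precursors, was listed with 174 reads in depleted and 6 in captured libraries (-5.58 ± 1.57, adjusted p = 0.0452). Its direction was opposite to that of the globins, the highest value was in ChILP library 1, and its call was lost without any 1 of the 8 libraries (adjusted p from 0.0556 to 0.188). A hairpin of 66 bases barely exceeds the read length of 50 bases, which limits what this count can show.

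The libraries within each route were not alike, and the lists above moved with these differences. In the depleted route, CLP library 1 and ChILP library 1 held more globin (0.613 and 0.732% of reads) than CLP library 2 and ChILP library 2 (0.0797 and 0.104%), and more mature neutrophil reads (0.277 and 0.337% against 0.0778 and 0.1%). Even the highest of these was below every captured library. With CLP library 2 and ChILP library 2 as the only depleted libraries, a fit chosen after the data were seen, 1050 genes were higher in the captured libraries and 431 lower, the globin median was 5.68 over 6 symbols tested, and 5 of them rose. Primary granule and eosinophil shares differed less between libraries numbered 1 and 2 (1.75 and 2.29% against 1.70 and 2.04%, and 1.40 and 2.04% against 0.952 and 0.928%).

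Of the 112 tested genes given here with values, 101 passed between routes and 70 against ChILP. Leaving out each library in turn, 75 of the 101 kept their call in all 8 fits, and 25 of the 70 did. With no filter on low counts, 22 of the 101 calls between routes were lost (adjusted p from 0.0509 to 0.206), among them Hba-a1, Beta-s, Hbb-b1, Alas2, Slc4a1, Camp, Ngp, Chi3l3, S100a8 and S100a9. The comparison with ChILP rests on 2 libraries on one side: without ChILP library 2, 125 genes were higher in the captured libraries and 123 in ChILP, and without ChILP library 1, 406 and 230.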

How the data were processed

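Poly(A) RNA of 8 sorted marrow cell samples (4 populations, 2 libraries each) was sequenced as 50-base reads from Smart-seq2 libraries, per the labels. The mouse build mm9 and the programs Bowtie2 2.2.2 and CASAVA 1.8.4 appear in the submitters' processing notes, with no role or order. The counting program, its strand setting and the annotation were not given in the sources used. The authors deposited, for each of 29257 transcripts, its length in bases, its read count and its RPKM. No other column of sample values was present. For each of 22878 symbols the transcript with the largest mean count was kept, and 22443 accessions matched current RefSeq.

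Counts were fitted with edgeR 4.0.16 (R 4.3.3): robust quasi-likelihood with 4 population means in 1 fit and no block, after TMM scaling and a filterByExpr minimum of 10 counts. P-values are 2-sided, with Benjamini-Hochberg adjustment over 13619 genes. SEs are the absolute log2 fold change over the square root of F. The route contrast is the mean of PD-1+ and CCR6+ minus the mean of CLP and ChILP. The gate-matched one subtracts ChILP. Alternatives used DESeq2 1.42.0, limma 3.58.1 on log2(RPKM + 1) or log2(RPKM + 0.1), and other scalings, filters and library subsets. The fit of the 6 libraries compared left out CLP and pooled PD-1+ and CCR6+ into a captured group. The fitting was tested on simulated data.

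The route comparison, members and gene lists were chosen with earlier results of these data known. The 27 lists held 441 symbols, some of them synonyms, which gave 429 genes in the files, and 5 entries had no match. Genes named were the markers, gate genes and depletion antigens, up to 6 highest-RPKM members of each list, and in each direction the up to 10 called genes of largest fold, a mean of at least 10 RPKM and no overlap. Csf1r, Fcgr1, Ccr3, Nfil3, Psap, Steap3, Igsf6, Mki67, Birc5 and Hsp90aa1, and genes given by name only, were chosen after their values were seen. Some genes that this rule names are not reported here.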

Additional observations from a re-analysis of the deposited data

Results flagged for a closer look

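In 20 cases 1 library of 4 in a route stood apart from the other 3 (its gap exceeded 0.829 of the route's range, a limit that chance passes in about 1 group in 20). The check covered, in each route, 4 library measures, 27 lists and at least the 112 tested genes given here with values. Chance alone would therefore give many such cases. The cases are also not independent, since Gata3, Tcf7 and Id2 belong to the ILC regulator list. In the captured route PD-1+ library 1 stood out most often. It was highest for the ILC regulators' share of reads (0.665%), for the stroma and endothelium list (0.0833%), and in RPKM for Gata3 (316), Tcf7 (238) and Id2 (696), and lowest for Ccr3 (8.45) and Galnt9 (13.6). CCR6+ library 1 was highest for the pro-B and pre-B list (0.276%), the cell cycle list (0.819%) and Siglech (42.0 RPKM). CCR6+ library 2 was highest for the megakaryocyte list (0.118%) and Ppbp (144 RPKM), and PD-1+ library 2 for C85492 (0.494 RPKM).

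In the depleted route ChILP library 1 was highest for Ppbp (656 RPKM), Gp5 (154), Car2 (1711), Ms4a1 (1.41) and Ccl2 (5.91). ChILP library 2 was lowest for Ctss (50.2 RPKM) and CLP library 2 for Apoe (110.3).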

How the results depend on the processing

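The replicate numbers were not treated as pairs: deviations of same-numbered libraries correlated across genes at -0.106 to 0.094 between populations. With a replicate block, 1355 genes were higher after capture and 1190 lower, and 646 and 608 against ChILP; 8 of the 112 named genes lost their call between routes. A 2-fold limit left 342 and 92 genes (32 and 12 against ChILP), and an adjusted p under 0.01 left 712 and 503 (98 and 100). Calls of genes lower after capture rose to 2657 with library totals, 3077 with limma on log2(RPKM + 1) and 2949 on log2(RPKM + 0.1), and against ChILP to 1766, 1995 and 1836. Against ChILP, DESeq2's Wald test called 1710 higher. With the number 2 libraries of CLP and ChILP only, chosen after seeing the data, 431 were lower between routes, and 334 higher and 82 lower against ChILP. Leaving out 1 library at a time gave 962 to 1692 higher and 716 to 1346 lower between routes, and 125 to 1049 and 123 to 847 against ChILP. With no filter on low counts, 22 named genes lost their call. The cause of these changes was not tested.

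Between routes, no called gene that is named here turned its direction in any fit; the reversals below are all of genes that did not pass. Il7r (log2 0.01) was -0.26 with library totals, -0.38 and -0.40 with limma on log2(RPKM + 1) and log2(RPKM + 0.1), -0.13 with the replicate block, -0.23 with the number 2 libraries of CLP and ChILP only, and -0.46 to 0.30 without 1 library. Klf1 was -0.026 with library totals and -0.0152 and -0.0153 in the limma fits. Pdcd1 was -0.047 and -0.42 in the limma fits and -3.12 to 0.945 without 1 library. Il1rl1 was 0.46 with the number 2 libraries and -2.91 to 0.20 without 1 library. Against ChILP, Col1a1 was the 1 called gene that turned, from -7.09 to 0.58 without ChILP library 1 (its range without 1 library was -8.09 to 0.58), and to 0.58 with the number 2 libraries only. The others did not pass: with the number 2 libraries Bglap was 0.52 and Il1rl1 0.32, and without 1 library they were -6.96 to 0.51 and -3.13 to 0.32, and Ccr6 -3.27 to 2.23. Il7r was -0.20 with library totals, -0.28 and -0.29 in the limma fits, -0.11 with the replicate block, -0.33 with the number 2 libraries, and -0.40 to 0.56 without 1 library. Flt3 was -0.21, -0.12 and -0.13 with library totals and limma, and -0.39 to 0.63 without 1 library. Klf1 was -0.17, -0.15 and -0.15, and -0.15 to 0.37. Cpa3 was -0.089, -0.12 and -0.12, and -0.070 to 0.35. In a fit of the 6 libraries compared, with PD-1+ and CCR6+ pooled, Gata3 was 0.43 and Tcf7 0.16. Without 1 library Gata3 was -1.31 to 0.091 and Id2 -0.068 to 0.62. Depth limits the genes with few reads, such as Cd5, with 65 reads over the 4 depleted libraries.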
